A study of Mus musculus with 5 samples.

Results

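Respiratory complex I subunit transcripts were followed in RNA of HL-1 cells and in RNA and DNA of the microvesicles these cells release. Members were all array probes whose platform gene symbol is Nduf followed by ab, a, b, c, s or v and a number, which leaves out the Ndufaf assembly factors. The rule found 44 of 25697 probes, for 34 of 16593 named genes. Subunit genes without such a probe are not analysed here. The HL-1 line descends from mouse atrial cardiomyocytes and was grown here in Claycomb medium with no treatment named, so every group derives from 1 immortalised line. The groups were microvesicle RNA (2 arrays), RNA of the cells themselves (2 arrays) and microvesicle DNA (1 array), all labelled as cRNA for Illumina mouse BeadChips with 1 colour. Terminal transferase had added a poly-T tail to the DNA, which let it go through the same labelling as messenger RNA. The labels name total RNA extraction and do not say that the replicates came from separate cultures.

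Complex I (NADH:ubiquinone oxidoreductase) is the largest enzyme of the respiratory chain and feeds electrons from NADH to ubiquinone while pumping protons across the inner mitochondrial membrane. It is built as a matrix arm, with an electron input (N) module that oxidises NADH and a ubiquinone-binding (Q) module, and a membrane arm with proximal and distal parts. Heart muscle depends on it for ATP. The Nduf genes are nuclear, while the proton-pumping core of the membrane arm is encoded in mitochondrial DNA and had no probe among those matched here.

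The 250 bases before the gene start were read from RefSeq (GRCm38.p6), which held 31 of the 34 genes. The motif GCGC, then 2 bases of any kind, then GCGC, the core of the site of NRF-1, a known activator of respiratory chain genes, was searched in them on both strands (it reads alike on both strands) and allowing overlap. It was in 6 of 31 members (19.4%), against 5.64% of 27025 genes with a promoter and 12.2% of the 2577 of them with a probe tested below. The ETS motif CCGGAAG, searched on both strands, was in 3 of 31 members (9.68%), against 7.83% and 16.9%, and it was in none of the windows shown. The carriers of the NRF-1 motif were Ndufa5, Ndufa8, Ndufs6, Ndufv2, Ndufb4 and Ndufab1. Their transcripts ranged from detected on every RNA array (Ndufa5, Ndufs6) to detected on none (Ndufb4, Ndufab1). Ndufs6, Ndufv2 and Ndufb4 were chosen, after their values were seen, to show windows that share the motif while their array signals differ. The windows, 5′ to 3′ with the NRF-1 motif in capitals, lie at chr13:73328483-73328732, minus strand for Ndufs6, chr17:66101560-66101809, minus strand for Ndufv2 and chr16:37654369-37654618, minus strand for Ndufb4.
Ndufs6: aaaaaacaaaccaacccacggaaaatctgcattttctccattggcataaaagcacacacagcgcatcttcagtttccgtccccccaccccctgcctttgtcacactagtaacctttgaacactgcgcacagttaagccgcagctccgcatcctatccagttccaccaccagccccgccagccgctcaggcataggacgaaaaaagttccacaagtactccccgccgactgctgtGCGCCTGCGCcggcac
Ndufv2: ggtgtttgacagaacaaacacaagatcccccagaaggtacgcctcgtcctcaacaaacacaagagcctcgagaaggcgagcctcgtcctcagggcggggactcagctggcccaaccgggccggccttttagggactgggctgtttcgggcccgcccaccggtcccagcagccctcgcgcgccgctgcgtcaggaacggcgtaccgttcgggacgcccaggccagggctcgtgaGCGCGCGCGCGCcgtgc
Ndufb4: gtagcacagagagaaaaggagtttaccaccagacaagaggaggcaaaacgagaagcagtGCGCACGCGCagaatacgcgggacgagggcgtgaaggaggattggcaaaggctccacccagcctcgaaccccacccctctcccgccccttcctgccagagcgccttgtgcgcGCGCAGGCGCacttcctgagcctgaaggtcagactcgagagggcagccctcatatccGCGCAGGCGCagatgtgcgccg
The Ndufs6 window holds 1 match, the Ndufv2 window 2 overlapping matches and the Ndufb4 window 3. A match of letters is a description and not a site shown to be bound.

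Each signal is the mean raw brightness of the beads of a probe, on a linear scale, with 23 to 58 beads behind each value of a member. Detection was called at a detection p under 0.01, that is, when few negative control probes were as bright. The arrays differed in how much they detected, from 343 probes on the DNA array and 2024 on microvesicle array 1 to 5605 on microvesicle array 2, with 4179 and 3629 on the cell arrays. Chip 1 held both cell arrays and microvesicle array 1, and chip 2 held microvesicle array 2 and the DNA array, so chip and array cannot be told apart for microvesicle array 2. Of 6 atrial and cardiac marker genes (Nppa, Myl4, Myl7, Myh6, Actc1, Nkx2-5), 6 were detected on each cell array and on microvesicle array 2, and 2 on microvesicle array 1. Of the markers of other cell types, none of 5 fibroblast, 2 macrophage or 2 erythroid genes on the array was detected on any of the 5 arrays, and of 4 endothelial genes only Tek was, on both cell arrays.

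The first question was which complex I transcripts could be seen in vesicles. Of the 44 member probes, 15 (15 genes) were detected on both microvesicle arrays, against 6.21% of all probes, and 21 (20 genes) on both cell arrays, against 13.5% of all probes. By array, 25 member probes were detected on cell array 1 (16.3% of all probes), 21 on cell array 2 (14.1%), 15 on microvesicle array 1 (7.88%) and 33 on microvesicle array 2 (21.8%). The 15 probes seen on microvesicle array 1 were seen on all 4 RNA arrays. A further 6 probes were seen on microvesicle array 2 and both cell arrays, and 3 on microvesicle array 2 and cell array 1. On microvesicle array 2 alone 9 were seen, on cell array 1 alone 1, and 10 on no RNA array. The shares of all probes with these patterns are not given here. Over all probes, microvesicle array 2 detected 5605 and both microvesicle arrays together 1595. In extracts of many vesicles, fewer vesicles that carry a transcript and fewer copies in each cannot be told apart.

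**Figure D1:**
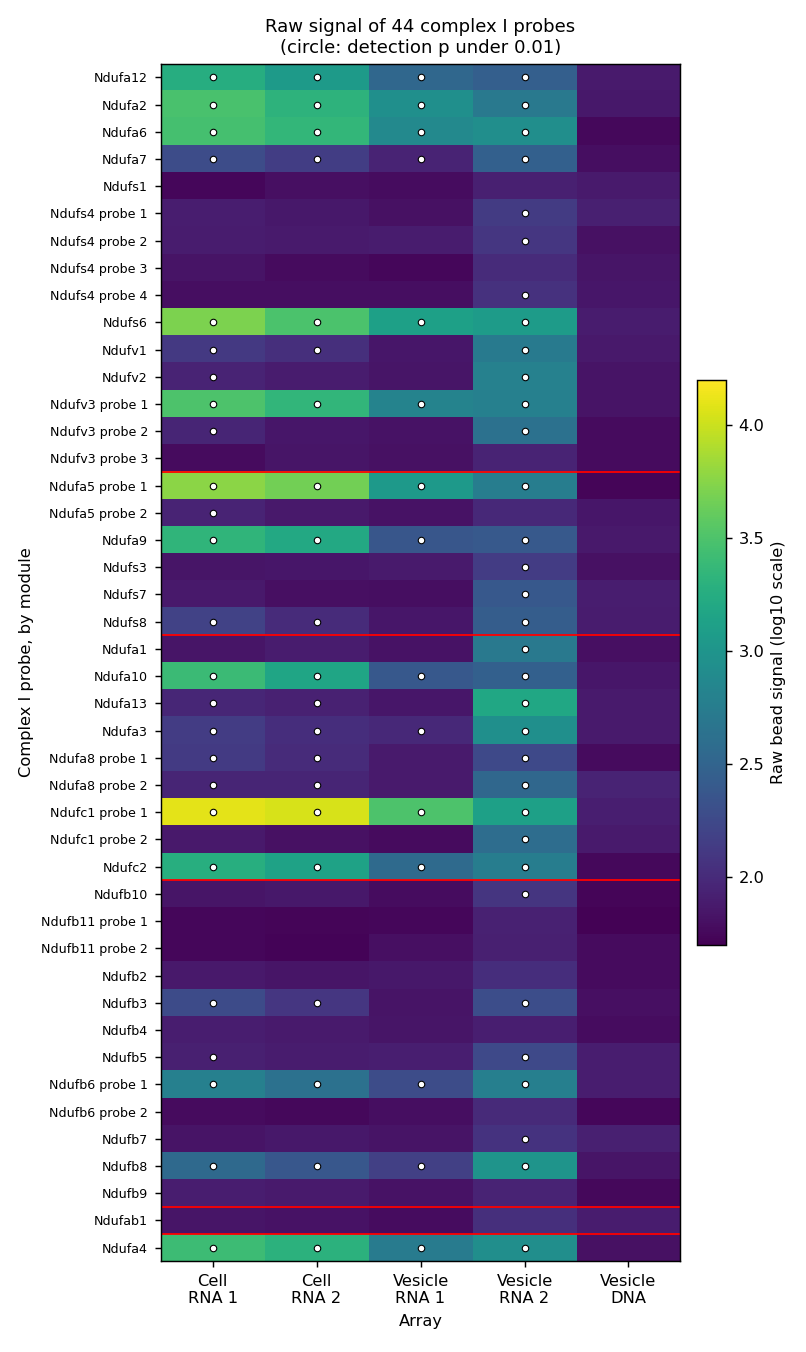
Raw bead signal (colour, log10 scale) of the 44 complex I probes (rows, grouped from top to bottom as N module, Q module, proximal arm, distal arm, the acyl carrier Ndufab1 and Ndufa4) on the 5 arrays (columns), where a circle marks a detection p under 0.01. Circles stand on 25 and 21 probes for the cell arrays, 15 and 33 for the vesicle RNA arrays and 0 for the DNA array.

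The genes seen on both microvesicle arrays came from every part of the enzyme. They were Ndufa2, Ndufa6, Ndufa7, Ndufa12, Ndufs6 and Ndufv3 of the N module, Ndufa5 and Ndufa9 of the Q module, Ndufa3, Ndufa10, Ndufc1 and Ndufc2 of the proximal arm, Ndufb6 and Ndufb8 of the distal arm, and Ndufa4. Of the 6 core genes of the matrix arm with a probe (Ndufv1, Ndufv2, Ndufs1, Ndufs3, Ndufs7, Ndufs8), 0 were detected on microvesicle array 1, 5 on microvesicle array 2, 3 on cell array 1 and 2 on cell array 2, where the shares of all probes were 7.88%, 21.8%, 16.3% and 14.1%. Probes differ in brightness for the same amount of transcript, so a dim probe does not rank its gene below another.

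Microvesicle array 2 was the sole RNA array to detect 6 member genes at a detection p under 0.01, and a cell array came near that threshold for each. The brightest was Ndufa1, an X-linked proximal arm subunit, with raw signals of 66.6 and 509.9 on vesicle arrays 1 and 2 and 69.7 and 77.5 on cell arrays 1 and 2. Its mean over the microvesicle arrays was 2.36-fold above a cell level. That level is the higher of the probe's own normalized signal and the lowest signal of any detected probe on each cell array. The undetected value on microvesicle array 1 (log2 4.66) entered the mean as it stood, so the fold is not a lower limit. The fold rests on array 2, by whose detection the gene was picked. On array 1 the gene was not detected and differed from the cell mean by -0.35. Ndufs7, which carries the iron-sulfur cluster next to ubiquinone, stood at 62.1 and 245 on vesicle arrays 1 and 2 and 73.9 and 63.0 on cell arrays 1 and 2. The others were Ndufs3 of the Q module, Ndufs4 of the N module, and Ndufb7 and Ndufb10 of the distal arm. Their signals on microvesicle array 2 were 141 for Ndufs3, 135 for the brightest of 4 Ndufs4 probes, 117 for Ndufb7 and 121 for Ndufb10. A second probe of Ndufc1 was also seen there alone, at 391. The median raw signal of all probes was 90.9 on microvesicle array 2, against 63.0 on microvesicle array 1 and 63.6 and 62.6 on cell arrays 1 and 2. Raw signals are to be read against each array's own median. Ndufs1, the largest iron-sulfur subunit, Ndufb2, Ndufb4, Ndufb9, Ndufb11 and the mitochondrial acyl carrier protein gene Ndufab1 were not detected on any array. Just outside the threshold were Ndufab1 and Ndufb2 on microvesicle array 2, each at a detection p of 0.0113, and Ndufb5 on microvesicle array 1, at 0.01003. The 6 genes seen on microvesicle array 2 alone were also near the threshold on a cell array. Their lowest detection p there ran from 0.0125 for Ndufs4 to 0.0401 for Ndufs3 and Ndufs7. At a detection p under 0.05 each of them was thus also detected on a cell array.

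The second question was how the level of each subunit transcript in vesicles compares with that in the cells. Raw signals were background-corrected and quantile-normalized over the 4 RNA arrays and set on a log2 scale, and probes detected on at least 2 of them were tested with limma. Of the 44 member probes 24 passed this filter, for 22 genes, of 3878 probes and 3123 genes in all. Where a gene had several tested probes, the one of highest mean over the 4 RNA arrays stands for it. A microvesicle value can thus decide the choice. For Ndufa8 the probe brighter on both cell arrays was not the one chosen. It gave a difference of -0.12 and did not lie over both cell arrays on microvesicle array 1. No member passed the test. At an adjusted p under 0.05, 0 of 24 member probes were higher and 0 lower in microvesicles, as over all probes (0% higher and 0% lower). At an unadjusted p under 0.05 the members again gave 0 and 0, where 5.52% of all probes were higher and 23.2% lower. Adjusted p-values of the 22 genes lay between 0.175 and 0.893. The median log2 difference, microvesicle mean minus cell mean, was -0.74 for the 22 genes and -0.84 for all 3123. Of the 22 genes 9 lay above 0, against 29.5% of all tested genes. Each microvesicle value was under each cell value in 5 of the 22 genes (22.7%), against 50.3% of all tested genes, and over each in 6 (27.3%), against 14.9%. Of those 6, Ndufa8 and Ndufb5 were not detected on microvesicle array 1. Among genes detected on all 4 RNA arrays, 4 of 15 members (26.7%) lay above 0, against 38.5% of 1300 genes. Their medians were -0.81 and -0.58. Of these 15 members 4 lay under and 4 over the cells on both microvesicle arrays, against 459 and 336 of the 1300. No test was made of these shares. Quantile normalization gives every array the same distribution of values, so it raised microvesicle array 1. In raw signal none of those 6 genes exceeded both cell arrays on microvesicle array 1.

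**Figure D2:**
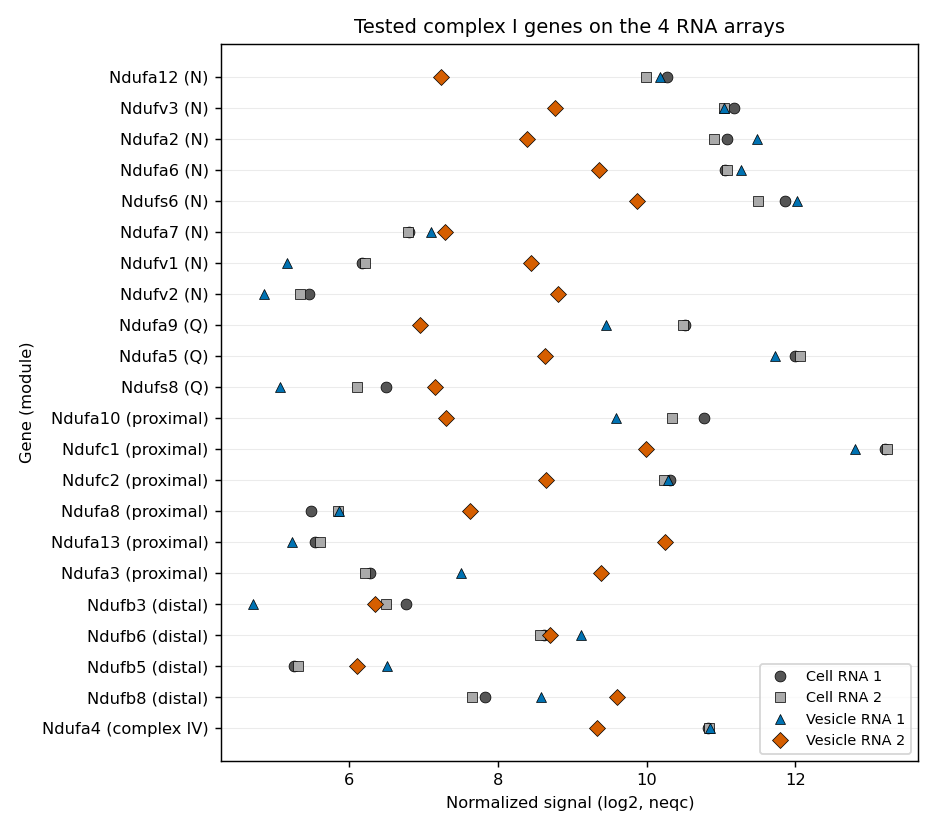
Normalized signal (log2) of the 22 tested genes, grouped by module, with a marker for each of the 4 RNA arrays. The cell markers nearly coincide in most rows, and vesicle array 2 stands apart from the other 3 arrays in most rows, as for Ndufa13 (10.24 against 5.23, 5.53 and 5.60).

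In the N module 8 of 10 genes were tested, with a median of -0.75. Of these, 0 lay below and 1 above the cells on both microvesicle arrays, against 50.3% and 14.9% of all tested genes. Ndufs6, a zinc-binding accessory subunit whose window is shown above, had raw signals of 1309 and 1184 on vesicle arrays 1 and 2 and 5116 and 3102 on cell arrays 1 and 2. Its normalized log2 values were 12.02 and 9.87 against 11.86 and 11.50 in the cells, so after normalization microvesicle array 1 lay above both cell arrays and array 2 below both, although both raw microvesicle signals were below the raw cell signals. The difference of -0.73 ± 0.88 (moderated SE of limma, as for every such error here, n = 2 per group) was smaller than its error. The same pattern of array 1 near or above the cells and array 2 below was seen in Ndufa2, a thioredoxin-like subunit (11.48 and 8.39 against 11.09 and 10.90, difference -1.06 ± 1.20). It was also seen in Ndufa6, which binds the acyl carrier protein (11.26 and 9.35 against 11.05 and 11.09, difference -0.76 ± 0.78). Ndufa12, which takes the place of an assembly factor late in the building of the enzyme, stood at 10.18 and 7.24 against 10.27 and 9.99. Its difference of -1.42 ± 1.15 arose on microvesicle array 2, as array 1 lay between the cell arrays. Ndufv3, an accessory subunit beside the NADH site, stood at 11.04 and 8.76 against 11.17 and 11.04, a difference of -1.20 ± 0.91 that was -0.067 without array 2 and -2.33 without array 1.

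The tested core genes of the N module had the reverse order of the vesicle arrays, with array 2 the higher. Ndufv1, the subunit that binds NADH and flavin, had raw signals of 71.2 and 529 on vesicle arrays 1 and 2 and 131 and 108 on cell arrays 1 and 2. Ndufv2, an iron-sulfur subunit, had raw signals of 68.9 and 634 on vesicle arrays 1 and 2 and 89.9 and 78.1 on cell arrays 1 and 2. Both were detected in vesicles on array 2 alone, where they lay above the cells. Their normalized values on array 1 were under those of the cells, but array 1 did not detect them. The lowest log2 value of a detected probe on array 1 was 6.51. The cell values were under that for Ndufv1 (6.17 and 6.22) and Ndufv2 (5.45 and 5.34), so a lower level on array 1 was not measured. Their log2 differences of 0.61 ± 1.27 and 1.44 ± 1.52 were smaller than their errors, and without microvesicle array 2 they turned to -1.01 and -0.40. Ndufa7, an accessory subunit, was the N module gene that exceeded the cells on each microvesicle array, by a small step (7.09 and 7.29 against 6.80 and 6.78, difference 0.40 ± 0.33), and with median scaling it turned to -0.41, which is 0.87 above the median of all tested genes under that scaling.

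In the Q module 3 of 5 genes with a probe were tested, with a median of -1.86. There 2 lay below and 0 above, against 50.3% and 14.9% of all tested genes. Ndufa9, a subunit that holds NADPH, had the lowest difference of any member. Its raw signals were 233 and 251 on vesicle arrays 1 and 2 and 2169 and 1600.0 on cell arrays 1 and 2, and its log2 values 9.45 and 6.95 against 10.52 and 10.48, so the groups did not overlap. The difference was -2.30 ± 0.99 (adjusted p = 0.232 in limma), and it was -1.04 when microvesicle array 2 was left out and -3.56 when array 1 was. Ndufa5, an accessory subunit, also lay below the cells on both arrays, with log2 values of 11.72 and 8.64 against 12.00 and 12.07 and a difference of -1.86 ± 1.20 (adjusted p = 0.358). Its raw signals were 1108 and 576 on vesicle arrays 1 and 2 and 5855 and 4705 on cell arrays 1 and 2. On array 1 its normalized value differed from the cell mean by -0.32, and on array 2 by -3.40. Ndufs8, the core subunit that carries iron-sulfur clusters toward ubiquinone, had log2 values of 5.07 and 7.15 against 6.50 and 6.11, higher than the cells on array 2. Array 1 did not detect it, and the lowest value of a detected probe there was 6.51, so a lower level on array 1 was not measured. The Ndufs8 difference of -0.19 ± 0.85 was far inside its error.

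In the proximal membrane arm 6 of 7 genes with a probe were tested, and they split, with a median of 0.13. Below lay 2 and above 2, against 50.3% and 14.9% of all tested genes. Ndufc1, a small accessory subunit, had the highest member signals in the cells. Its raw signals were 3176 and 1307 on vesicle arrays 1 and 2 and 12628 and 11189 on cell arrays 1 and 2, with a bead standard error of 125 on microvesicle array 1 and 55.2 on array 2. On each microvesicle array it lay below the cells (12.80 and 9.99 against 13.21 and 13.23), and its difference was -1.82 ± 1.10 (adjusted p = 0.335). Ndufa10, which resembles a nucleoside kinase, also lay below on both, with log2 values of 9.59 and 7.30 against 10.78 and 10.33 and a difference of -2.11 ± 0.93 (adjusted p = 0.238). Ndufc2 was at its cell level on array 1 and below on array 2 (10.29 and 8.64 against 10.31 and 10.24, difference -0.81 ± 0.69).

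Ndufa3, a small membrane subunit, had the highest difference of any member. Its raw signals were 97.9 and 884 on vesicle arrays 1 and 2 and 138 and 107 on cell arrays 1 and 2, and its log2 values of 7.50 and 9.39 against 6.27 and 6.21 did not overlap between the groups. The difference was 2.20 ± 0.78 (adjusted p = 0.179 in limma), and 1.34 with median scaling. Ndufa13, known as GRIM-19 and first described as a cell death regulator, had nearly the same difference, 2.17 ± 1.90, on a different footing. Its raw signals were 71.7 and 1534 on vesicle arrays 1 and 2 and 93.6 and 84.2 on cell arrays 1 and 2, with bead standard errors of 4.41 and 46.1 on microvesicle arrays 1 and 2. It was not detected on microvesicle array 1 and was the brightest member on array 2. The bead errors cover the spread within an array and not that between samples, and without array 2 the difference turned to -0.30. Ndufa8, a subunit of the intermembrane space face, lay just above the cells on array 1 and clearly above on array 2 (5.86 and 7.63 against 5.49 and 5.84, difference 1.08 ± 0.75), though array 1 did not detect it.

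In the distal membrane arm 4 of 10 genes were tested, with a median of 0.67. There 1 lay below and 3 above, against 50.3% and 14.9% of all tested genes. Ndufb8 stood at raw signals of 149 and 992 on vesicle arrays 1 and 2 and 357 and 241 on cell arrays 1 and 2 and at log2 values of 8.58 and 9.60 against 7.83 and 7.65, above the cells on both arrays by a mean of 1.35 ± 0.50 (adjusted p = 0.194). With median scaling the difference was 0.23, which is 1.501 above the median of all tested genes under that scaling. Ndufb5 had the smallest adjusted p of any member, 0.175, at a difference of 1.03 ± 0.35. It was close to background, with raw signals of 80.6 and 179 on vesicle arrays 1 and 2 and 82.8 and 77.5 on cell arrays 1 and 2, and its beads passed detection only on cell array 1 and microvesicle array 2. Ndufb6 had log2 values of 9.12 and 8.70 against 8.62 and 8.57, a difference of 0.32 ± 0.36. With median scaling, which moved the median of all tested genes down, it turned to -0.84. That is 0.43 above the median of all tested genes under that scaling. Ndufb3 was the gene below the cells on both arrays (4.70 and 6.35 against 6.76 and 6.49, difference -1.10 ± 0.70), and array 1 did not detect it. Ndufa4, which the rule matches by name although the protein is now placed in cytochrome oxidase, was level with the cells on array 1 and lower on array 2 (10.85 and 9.34 against 10.83 and 10.84, difference -0.74 ± 0.65).

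The errors joined the spread between arrays, mainly that between the microvesicle arrays, with a variance that limma shares over all tested probes. The smallest error of the 22 genes was 0.33, for Ndufa7, whose microvesicle arrays lay 0.20 apart. The median absolute log2 difference between microvesicle arrays was 2.12 for the 22 genes and 1.35 for all tested genes, against 0.072 and 0.16 between the cell arrays. After quantile normalization microvesicle array 1 gave a median difference from the cell mean of 0.013 (all tested genes -0.32). On it 12 of 22 genes lay above the cell mean, against 39.7% of all tested genes. The range was from -1.92 for Ndufb3, which array 1 did not detect, to 1.26 for Ndufa3. Microvesicle array 2 gave a median of -0.89 (all tested genes -1.29) and a range from -3.55 for Ndufa9 to 4.68 for Ndufa13. Across the 22 genes the log2 values of microvesicle array 1 correlated with the cell mean at 0.96 (Spearman 0.92) and those of array 2 at 0.31 (Spearman 0.28). Over the 3123 tested genes the values were 0.80 (0.70) and 0.32 (0.26). These are across genes, which are not independent replicates, and share the probes' own brightness.

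The members fell into separate ranges on array 2 by their signal in the cells. In 11 genes (Ndufa2, Ndufa4, Ndufa5, Ndufa6, Ndufa9, Ndufa10, Ndufa12, Ndufc1, Ndufc2, Ndufs6 and Ndufv3) both raw cell signals were 1000 or more, a limit chosen after the values were seen. All 11 lay below the cell mean on microvesicle array 2, as did 267 of the 285 tested genes of such cell signals (93.7%), by log2 differences from -3.55 to -1.49 with a median of -2.60, while on array 1 they lay between -1.05 and 0.48 with a median of 0.012. Over those 285 genes the medians were -3.39 on array 2 and -0.42 on array 1. In the other 11 genes array 2 lay above the cell mean in 10, against 25.1% of the 2838 other tested genes, with a median of 1.86 against -1.18 over those genes, and array 1 had a median of 0.19 against -0.30. Of these dimmer members Ndufb5 and Ndufv2 were detected on cell array 1 and microvesicle array 2 alone, so their signal on array 2 admitted them to the test. The signal on array 2 also entered the choice of the Ndufa8 probe. The other tested Ndufa8 probe lay at -0.032 from the cell mean on array 2. The cell signal also enters each difference, and the part of either in the pattern was not tested.

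**Figure D3:**
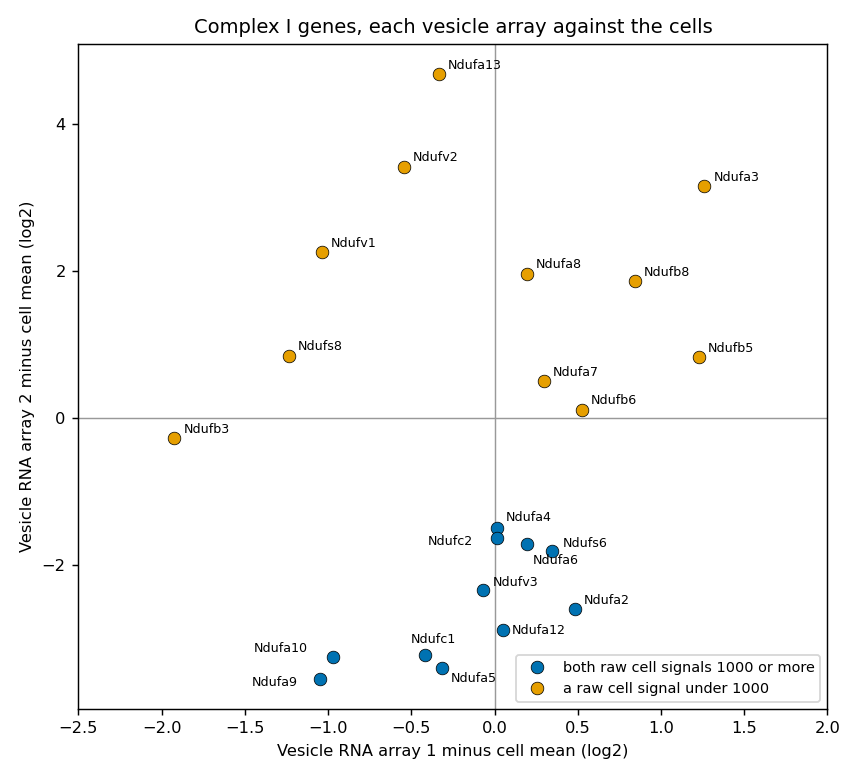
Difference from the mean of the cell arrays (log2) on vesicle RNA array 1 (horizontal axis) and array 2 (vertical axis) for the 22 tested genes, coloured by raw cell signal. The 11 genes of high cell signal lie at 0.48 or less on the horizontal axis and at -1.49 or less on the vertical axis, and 10 of the other 11 lie above 0 on the vertical axis.

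The calls of single genes turned on which microvesicle array was kept and on the scaling. Without microvesicle array 2, that is within chip 1, limma called 4 member probes higher and 6 lower, where 25.7% and 43.9% of all probes were called. The higher ones were Ndufa3 (1.37), Ndufb5 (1.25), Ndufb8 (0.90) and Ndufb6 (0.54). The lower ones were Ndufb3 (-1.78), Ndufs8 (-1.19), Ndufa9 (-1.04), Ndufv1 (-1.01), Ndufa10 (-0.96) and Ndufc1 (-0.50). Microvesicle array 1 did not detect Ndufb3, Ndufs8, Ndufv1 or Ndufb5, so their values in this fit are set against a signal not told apart from background and their size is not measured. Without microvesicle array 1 it called 10 member probes higher and 11 lower, where 17.1% and 70.1% of all probes were called. Those fits leave 1 microvesicle array that is assumed to vary as little as the cell arrays, and they share both cell arrays. With each array scaled to the same median in place of quantile normalization, 0 member probes were higher, against 0.181% of all probes, and 11 were lower, against 42.6%, namely the 11 genes of high cell signal. That scaling moved the median of all tested genes by -0.44 and the median of the members to -1.43, and under it 0 member genes exceeded the cells on each microvesicle array, against 2.79% of all tested genes, and 11 fell short on each, against 66.2%. Relative to the median of all tested genes under that scaling, Ndufa9 lay at -2.11 and Ndufa3 at 2.61.

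Different probes of a gene did not always agree. Of the 34 genes, 27 had 1 probe, 5 had 2, 1 had 3 and 1 had 4. The bright Ndufv3 probe gave -1.20, while another tested Ndufv3 probe, at raw signals of 67.0 and 426 on vesicle arrays 1 and 2 and 90.1 and 70.3 on cell arrays 1 and 2, gave 1.20, and the last was detected nowhere. The Ndufa8 probes gave 1.08 and -0.12. The second Ndufa5 probe was detected on cell array 1 alone and the second Ndufb6 probe on none, and the Ndufc1 probes stood at 12628 and 73.7 on cell array 1. The 4 Ndufs4 probes stayed between 61.6 and 80.1 on cell array 1. Levels of different probes are not comparable. No probe of these genes passed the test, and for Ndufv3 and Ndufa8 the sign of the difference depended on the probe.

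The other genes of the pathway gave a background for the subunits, from lists chosen with earlier results known. Of 12 complex I assembly factor genes with a probe 3 were tested and 0 passed. All 3 lay below 0, as did 2203 of all 3123 tested genes, with a median of -1.24 against -0.84. The brightest in the cells was Ndufaf4, with log2 values of 10.24 and 7.08 in microvesicles and 9.97 and 10.03 in the cells. Of 11 genes for regulators of mitochondrial gene expression 5 were tested and 0 passed, with a median of -0.70. Among them Nrf1, the gene of the factor whose motif was searched above, was at -2.38 ± 0.92 and the nuclear receptor gene Esrra at -0.70 ± 0.64. The 33 tested genes of complexes II to V had a median of -0.43, with 0 past the test. Of the 33, 12 lay below and 9 above the cells on both arrays, where 50.3% and 14.9% of all tested genes did. By complex the medians were 0.19 for 2 genes of complex II, -1.25 for 6 of complex III, 0.97 for 13 of complex IV and -0.41 for 12 of complex V. On microvesicle array 1 the 33 genes had a median of -0.079, near the 0.013 of complex I, and on array 2 of -0.95, near its -0.89. The difference between complex I and the other complexes was not tested.

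**Figure D4:**
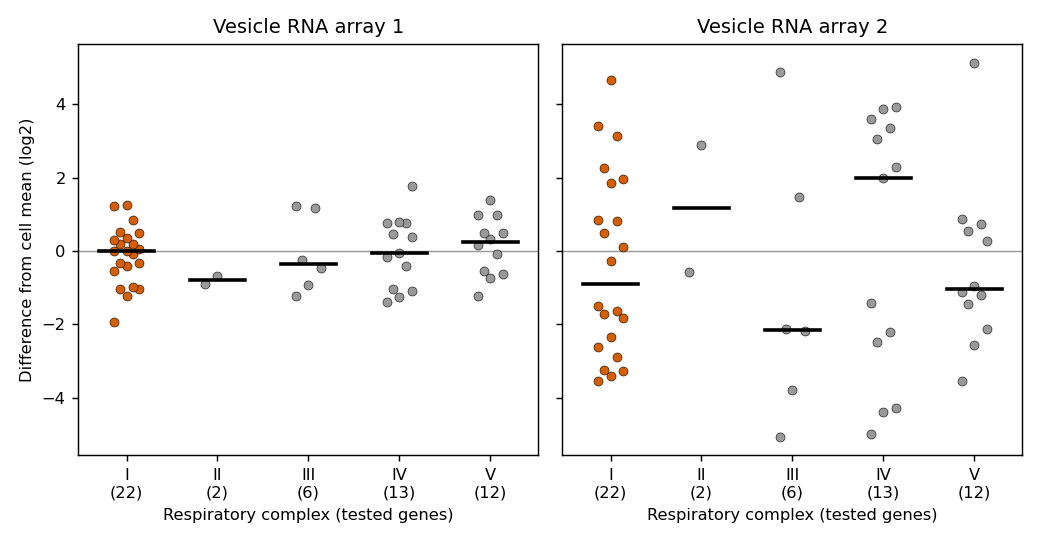
Difference from the cell mean (log2) of each tested gene (points) of respiratory complexes I to V on vesicle RNA array 1 (left) and array 2 (right), with the median as a bar and the number of genes in brackets, Ndufa4 being counted with complex I by the naming rule. On array 1 the complex I points lie between -1.92 and 1.26, and on array 2 between -3.55 and 4.68.

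The last question was whether complex I sequences could be seen in vesicle DNA. Of the 44 member probes 0 were detected on the DNA array, where 1.33% of all probes were, and 0 of 44 allows a share of up to 6.82% (3 of 44) as a limit of counting alone on this array, with probes of the same gene counted as if independent. Raw signals of the members there lay between 52.0 and 89.5, around the array's median of 70.2. The brightest was the Ndufa8 probe that stands for the gene, at 89.5 with a bead standard error of 3.87 and a detection p of 0.0301. Ndufc1, the brightest member in the cells, and Ndufa13, the brightest on microvesicle array 2, stood there at 82.0 and 75.8. With 1 DNA array there is no replicate and no test.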

How the data were processed

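RNA and DNA extracts were hybridised to 5 Illumina arrays. Per the file headers, the authors deposited for each probe an average bead intensity, not normalized, with a standard error, a bead number and a detection p-value. The submitters' processing notes name BeadStudio 3.3. The authors' second deposited table holds linear intensity values, some below 0, with medians of 3.51, 3.50, 3.50 and 3.50 on microvesicle arrays 1 and 2 and cell arrays 1 and 2 and 3.50 on the DNA array; how it was normalized is unknown here, and it served as an alternative. Groups came from the sample titles.

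Raw intensities of the 4 RNA arrays were processed with neqc of limma 3.58.1 in R 4.3.3 (offset 16, negative controls inferred from detection p-values, quantile normalization). The offset compresses differences of dim probes. Probes with a detection p under 0.01 on at least 2 of 4 arrays entered lmFit and eBayes (two-sided, no block), and Benjamini-Hochberg adjustment ran over all tested probes. The p-values measure the spread between these arrays, which may be technical, and the number of arrays limits precision. The fit was tested on simulated data. A gene was represented by its tested probe of highest mean over the 4 RNA arrays. Gene symbols came from the platform annotation. Members, lists and tests were chosen with earlier results of these data known. Array values were given for genes detected on both microvesicle arrays, the 5 highest and 5 lowest differences, the 5 highest cell means, genes detected on 1 or 2 of the 4 RNA arrays and, from other lists, at most 2 genes of high cell mean. Ndufb3, Ndufs8 and Ndufv1 lie outside that rule and were added after their values were seen.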

Additional observations from a re-analysis of the deposited data

How the results depend on the processing

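Results on the members moved with the scaling, the filter and the array kept, and in every case the cause was not tested. Over all probes limma called 0 higher and 0 lower, against 7 and 1651 with median scaling, 5 and 1416 without normalization, 16 and 163 without a filter, 10 and 677 with a variance trend and 968 and 1735 with chip as a block. On leaving out each array in turn the counts ranged from 0 to 997 higher and from 0 to 2718 lower. Member probes called were 0 higher and 0 lower, against 11 lower with median scaling and 11 lower without normalization, 4 higher and 6 lower with chip as a block, and 0 to 10 higher and 0 to 11 lower on leaving out an array. With the replicate number as a replicate block, member calls stayed at 0 and 0, and the median difference was -0.74. The labels do not say that the numbers pair samples, and the deviations of same-numbered arrays correlated at -0.24 over the tested probes. The members' median of -0.74 became -1.43 with median scaling, -0.032 over 34 genes without a filter and 0.013 with chip as a block, and ranged from -0.89 to 0.012 on leaving out an array. In the same order, the median of all genes in the fit went from -0.84 to -1.28, 0.016 over 16593 genes and -0.32. On leaving out an array the median of all genes ranged from -1.44 to -0.32. Genes below both cell arrays numbered 5 and those above 6, against 11 and 0 with median scaling and 11 and 0 without normalization. Over all tested genes the shares were 50.3% below and 14.9% above, and 66.2% and 2.79% with median scaling. They are not given here for the other settings. On leaving out an array the member counts ranged from 5 to 12 below and from 6 to 10 above. There 1 array stands against 2, a condition easier to meet, so these ranges are not set against the 5 and 6. At a detection p under 0.05, 32 member probes in place of 21 were detected on cell array 2 and 1 in place of 0 on the DNA array.

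Of the 22 genes 2 changed sign with median scaling and without normalization, Ndufa7 to -0.41 and -0.33 and Ndufb6 to -0.84 and -0.77. Both settings moved the median of all tested genes down, to -1.28 and -1.20, and relative to it Ndufa7 lay at 0.87 and Ndufb6 at 0.43 under either. With chip as a block, which compares microvesicle array 1 with the cells, 9 changed sign: Ndufa12 to 0.052, Ndufa13 to -0.33, Ndufa2 to 0.48, Ndufa4 to 0.012, Ndufa6 to 0.20, Ndufc2 to 0.014, Ndufs6 to 0.35, Ndufv1 to -1.04 and Ndufv2 to -0.54. Leaving out an array turned 10 genes. The ranges were -2.91 to 0.042 for Ndufa12, -0.30 to 4.80 for Ndufa13, -2.60 to 0.48 for Ndufa2, -1.49 to 0.011 for Ndufa4, -1.70 to 0.22 for Ndufa6, -1.64 to 0.014 for Ndufc2, -1.79 to 0.37 for Ndufs6, -1.19 to 0.89 for Ndufs8, -1.01 to 2.31 for Ndufv1 and -0.40 to 3.56 for Ndufv2. An offset of 50, a detection p of 0.05 in the filter, the authors' processed values and the variance trend changed the sign of none of the 22. Signal near background limits the dim members, for which array 1 often gave no detection.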
